A study of Arabidopsis thaliana with 4 samples.

Results

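The genes described here are 10 Arabidopsis thaliana genes of iron uptake and storage, listed by name, with earlier results of these data known: IRT1 (AT4G19690), FRO2 (AT1G01580), FRO4 (AT5G23980), FRO5 (AT5G23990), FIT (AT2G28160, FRU in the RefSeq gene table), bHLH38 (AT3G56970), bHLH39 (AT3G56980), bHLH100 (AT2G41240), bHLH101 (AT5G04150) and FER1 (AT5G01600). All 10 had a probe that passed the filter on dim probes, among 20413 genes that did. The samples were whole wild-type seedlings of the Col-0 ecotype, aged 14 d and grown at 22 °C with 8 h of light a day on agar with sucrose. Untreated seedlings (0 h) were compared with seedlings kept for 2 h or 5 h on paper soaked in a NaCl solution of 300 mM. Each of 4 Agilent arrays of 2 colours carried the 0 h RNA labelled with Cy3 and a salt sample labelled with Cy5, with 2 replicates at 2 h and 2 at 5 h. The 0 h sample carries no number in the labels and was counted as 1 control sample. A ratio tested against 0 therefore leaves out the spread of the control. No array had the dyes exchanged, so a dye bias of a probe cannot be told apart from the effect of salt, although it drops out when 5 h is set against 2 h. Seedlings moved to paper without salt were not analysed here, so the effects of the transfer and of the time of day cannot be told apart from that of salt.

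Arabidopsis takes up iron by acidifying the soil with proton pumps, reducing ferric iron at the root surface and importing ferrous iron into epidermal cells. FRO2 is the ferric chelate reductase of this route and IRT1 the ferrous iron importer. Both genes are switched on under iron shortage by FIT, a bHLH transcription factor that acts as a dimer with bHLH38, bHLH39, bHLH100 or bHLH101. FRO4 and FRO5 are further members of the reductase family, known for copper reduction at the root surface. FER1 encodes a plastid ferritin, a protein shell that stores iron, and is known to rise under iron excess and oxidative stress.

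IRT1, FRO2 and FER1 were higher after salt at both times, while FIT and bHLH101 were lower at both. FRO4 was lower at 2 h and higher at 5 h. The signals of FRO5, bHLH38, bHLH39 and bHLH100 lay at or near the background in at least 1 of the conditions. With limma's moderated test and Benjamini-Hochberg adjustment over all genes (adjusted p under 0.05), 4 of the 10 genes were higher and 4 lower at 2 h. The percentage called in either direction among all genes at 2 h was 81.8%, with 41.4% higher and 40.4% lower, so the count of the 10 genes is near the background. At 5 h, 5 of the 10 were higher and 4 lower, beside 87.7% of all genes (44.1% higher and 43.7% lower). Called changes of at least 2-fold were 2 higher and 1 lower at 2 h, where 9.75% of all genes were higher and 2.33% lower by that much. At 5 h, 4 were at least 2-fold higher and 0 were at least 2-fold lower, beside 13.6% and 7.28% of all genes. These counts depend on the scale, also for genes well above background in both channels of every array. In the processed signals described below, FIT was 2.18-fold lower at 2 h and 2.05-fold lower at 5 h. For bHLH101 these folds were 4.52 and 2.04. Relative to the median of all genes, the processed log2 values were -0.98 and -0.9 for FIT and -2.03 and -0.9 for bHLH101. Both were thus short of 2-fold at 5 h once centred. The median size of the log2 change, whatever its direction, was 0.665 over the 10 genes at 2 h and 0.316 over all genes. At 5 h these medians were 0.695 and 0.469. The signed medians of the 10 genes were -0.035 at 2 h and 0.24 at 5 h. FRO5 and bHLH39 passed the filter only through salt samples, and bHLH38 and bHLH100 only through the 0 h sample, in each case the channel where they were brighter. The counts and medians therefore describe the 10 genes and support nothing further.

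The signals printed below are processed intensities, which Feature Extraction, the scanner's software, gives after background subtraction and dye normalization. They are given for the Cy3 (0 h) and the Cy5 (salt) channel of the same array. A log2 change is the mean of 2 arrays after background correction with an offset of 50 and loess normalization, with limma's moderated SE, which pools the spread of both times. The offset draws the ratios of dim probes toward 0, so the ratio of the processed signals is printed beside it as the second scale. Whole seedlings were sampled, so fewer cells of a type and less RNA per cell cannot be told apart.

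IRT1, the importer, had 0 h signals of 38.2 and 28.8 on the 2 h arrays, beside salt signals of 319 and 412. On the 5 h arrays its 0 h signals were 40.9 and 42.5 and its salt signals 273 and 263. Salt was thus far above 0 h on each array, and the 4 signals at 0 h were close to the background although marked as well above it. The log2 change was 2.04 ± 0.037 at 2 h (4.12-fold higher, n = 2, limma adjusted p = 2.04e-09) and 1.55 ± 0.037 at 5 h (2.94-fold higher, n = 2, limma adjusted p = 5.31e-09). On the scale of the processed signals the same increases were 10.9-fold at 2 h and 6.43-fold at 5 h. The ratio at 5 h was below that at 2 h by a log2 difference of -0.49 ± 0.053 (limma adjusted p = 9.14e-05). With the processed signals that difference was -0.765 and was not called (limma adjusted p = 0.0788). These values come from 1 of the 2 IRT1 probes. The other probe failed the filter, since it was well above background in 1 of the 4 Cy3 channels and in 0 of the 4 Cy5 channels. Its loess log2 ratios were -0.04 and -0.29 at 2 h and -0.34 and -0.24 at 5 h, which is the opposite direction, so the probes of IRT1 disagree. IRT2 (AT4G19680), the next gene on chromosome 4 and also an iron transporter gene, had 0 h signals of 85.1, 99.5, 118 and 103. Its salt signals were 31.7 and 33.2 at 2 h, well above background on 1 of 2 arrays, and 24.7 and 19.4 at 5 h, well above it on 0 of 2. IRT2 was lower at 2 h (log2 -0.50 ± 0.034, limma adjusted p = 3.7e-06) and lower at 5 h by a fitted 1.52-fold (limma adjusted p = 7.37e-07). IRT2 passed the filter only through the 0 h sample, where it was brighter, so these calls are a description.

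FRO2, the reductase that serves IRT1, gave 0 h signals of 109 and 124 and salt signals of 194 and 208 on the 2 h arrays. On the 5 h arrays the 0 h signals were 148 and 131 and the salt signals 407 and 404. The salt signals were higher on all 4 arrays. The log2 change was 0.62 ± 0.047 at 2 h (1.54-fold higher, n = 2, limma adjusted p = 6.63e-06) and 1.11 ± 0.047 at 5 h (2.16-fold higher, n = 2, limma adjusted p = 1.27e-07). The increase was larger at 5 h than at 2 h by a log2 difference of 0.49 ± 0.066 (limma adjusted p = 0.000318), opposite in direction to the difference of IRT1. On the processed scale the folds of FRO2 were 1.72 at 2 h and 2.91 at 5 h. Its neighbour on chromosome 1, FRO1 (AT1G01590), was called lower at both times. FRO1 passed the filter only through the 0 h sample, where it was brighter, and its salt signals were not well above background.

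**Figure D1:**
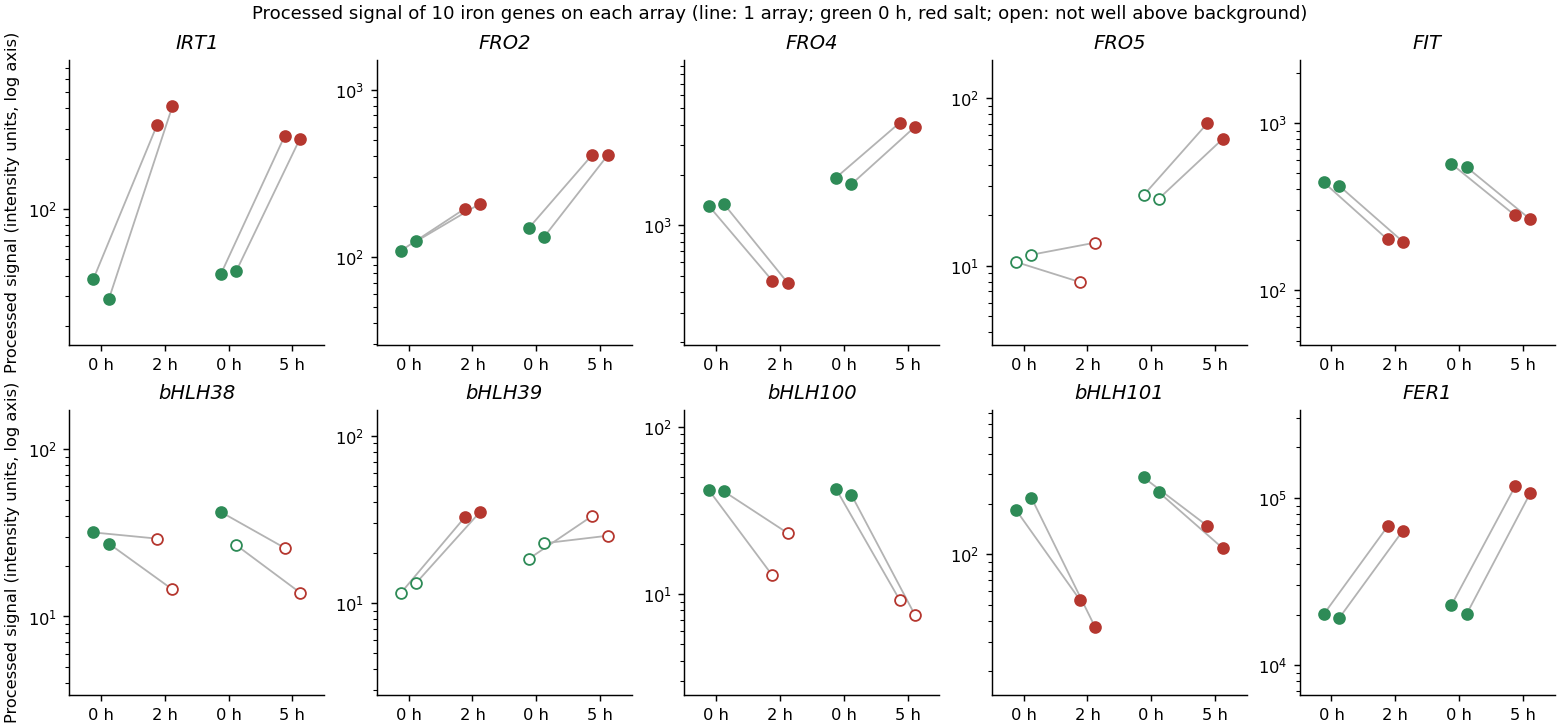
Processed signal (intensity units, log axis) of the 10 genes in the Cy3 channel (0 h, green) and the Cy5 channel (2 h or 5 h of salt, red) of each array, with 1 line for each array and open points where the probe was not well above background. The lines of IRT1, FRO2 and FER1 rise on all 4 arrays, those of FIT and bHLH101 fall on all 4, and those of FRO4 fall on the 2 h arrays and rise on the 5 h arrays.

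FRO4 was the gene of the 10 that changed direction with time past the test. On the 2 h arrays its 0 h signals were 1310 and 1340 and its salt signals 466 and 453. On the 5 h arrays the 0 h signals were 1930 and 1760 and the salt signals 4110 and 3890. Salt was below 0 h on both 2 h arrays and above it on both 5 h arrays. The log2 change was -1.14 ± 0.035 at 2 h (2.2-fold lower, n = 2, limma adjusted p = 3.33e-08) and 1.16 ± 0.035 at 5 h (2.24-fold higher, n = 2, limma adjusted p = 1.71e-08). On the processed scale FRO4 was 2.89-fold lower at 2 h and 2.17-fold higher at 5 h. The difference between the times was 2.30 ± 0.049 on the log2 scale (4.92-fold, limma adjusted p = 6.07e-08). The direction at both times and the call of the difference held under each alternative processing that was run.

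FRO5 lies next to FRO4 on chromosome 5, and as close relatives the pair may share probe signal. FRO5 was not well above background at 0 h on any of the 4 arrays, with signals of 10.5, 11.6, 26.3 and 25.1. Its salt signals were 7.97 and 13.7 at 2 h, also not well above background, and 70.7 and 57.0 at 5 h, well above it on both arrays. No fold is given at 2 h, where the loess log2 ratios of the 2 arrays had opposite signs. At 5 h FRO5 was called higher by a fitted 1.3-fold (log2 0.38 ± 0.078, n = 2, limma adjusted p = 0.00199). Where 1 channel was dim, a fitted fold rests on the dim probe's own signal after the offset, so it is not a lower limit. FRO5 passed the filter only through its 5 h salt signals, so its call at 5 h is a description beside that of FRO4. Only FRO4 had a measured level at 2 h.

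FIT, the central regulator of the uptake genes, had 0 h signals of 441 and 421 and salt signals of 201 and 195 on the 2 h arrays. On the 5 h arrays the 0 h signals were 570 and 544 and the salt signals 280 and 265. The salt signals were lower on all 4 arrays, by nearly the same factor each time. The log2 change was -0.71 ± 0.035 at 2 h (1.64-fold lower, n = 2, limma adjusted p = 5.3e-07) and -0.68 ± 0.035 at 5 h (1.6-fold lower, n = 2, limma adjusted p = 4.35e-07). The processed signals gave decreases of 2.18-fold at 2 h and 2.05-fold at 5 h. The log2 difference between the times was 0.04 ± 0.050 and was not called (limma adjusted p = 0.521), but it was 0.225 and called (limma adjusted p = 0.00631) when the arrays were scaled to one spread. A second FIT probe gave loess log2 ratios of -0.36 and -0.38 at 2 h and -0.33 and -0.18 at 5 h, the same direction. That probe passed the filter only through the 0 h sample, where it was brighter, so its direction is a description. The decrease of FIT therefore stood beside increases of IRT1 and FRO2, the genes it is known to activate.

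The dimer partners of FIT were mostly dim. bHLH101 was the one of the 4 that was well above background in both channels of every array, with 0 h signals of 184 and 218 and salt signals of 53.5 and 36.7 on the 2 h arrays. On the 5 h arrays its 0 h signals were 288 and 235 and its salt signals 148 and 109. Salt was below 0 h on all 4 arrays. The log2 change was -0.96 ± 0.067 at 2 h (1.94-fold lower, n = 2, limma adjusted p = 3.96e-06) and -0.71 ± 0.067 at 5 h (1.63-fold lower, n = 2, limma adjusted p = 1.77e-05). The processed signals gave decreases of 4.52-fold at 2 h and 2.04-fold at 5 h. The difference between the times, 0.25 ± 0.094, was called (limma adjusted p = 0.0411), but not without the second 2 h replicate (0.097, limma adjusted p = 0.166) or without the second 5 h replicate (0.244, limma adjusted p = 0.0562).

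bHLH100 had 0 h signals of 41.9, 41.0, 42.3 and 39.1, all marked as well above background. Its salt signals were 12.9 and 23.1 at 2 h and 9.16 and 7.44 at 5 h, not well above background on any array. The salt signal was the lower one on each array. bHLH100 was called lower by a fitted 1.19-fold at 2 h (log2 -0.26 ± 0.067, n = 2, limma adjusted p = 0.00827). At 5 h the fitted decrease was 1.21-fold (log2 -0.28 ± 0.067, n = 2, limma adjusted p = 0.00491). bHLH100 passed the filter only through the 0 h sample, where it was brighter, so these calls are a description. Without the first 2 h replicate the 2 h value was -0.101 and was not called (limma adjusted p = 0.104).

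bHLH38 and bHLH39 are neighbours on chromosome 3 and had the weakest evidence of change. bHLH38 had 0 h signals of 31.8, 27.3, 42.1 and 26.7, well above background on 3 of 4 arrays, and salt signals of 29.2 and 14.5 at 2 h and 25.7 and 13.9 at 5 h, none well above it. Its log2 value was -0.04 ± 0.035 at 2 h and was not called (limma adjusted p = 0.337). At 5 h bHLH38 was called lower by a fitted 1.1-fold (log2 -0.14 ± 0.035, n = 2, limma adjusted p = 0.00695). On the second 5 h array its 0 h signal of 26.7 was dim too, so 1 array had a measured 0 h level behind that fold. The call was lost without the first 5 h replicate (-0.145) or without the second (-0.127). bHLH38 passed the filter only through the 0 h sample, so the call is a description. bHLH39 had 0 h signals of 11.5, 13.2, 18.3 and 22.7, none well above background. Its salt signals were 32.5 and 35.0 at 2 h, well above background on both arrays, and 33.1 and 25.2 at 5 h, not well above it. At 2 h bHLH39 was called higher by a fitted 1.17-fold (log2 0.23 ± 0.083, n = 2, limma adjusted p = 0.0332). That log2 value fell to 0.098 without the second 2 h replicate, and the call was lost with an offset of 16 (0.403, limma adjusted p = 0.0583). bHLH39 passed the filter only through the 2 h salt samples, where it was brighter, so the call is a description. No fold is given at 5 h, where both channels were dim. Of the 5 regulators, FIT and bHLH101 thus had measured decreases at both times, and bHLH39 was the one called higher at 2 h.

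**Figure D2:**
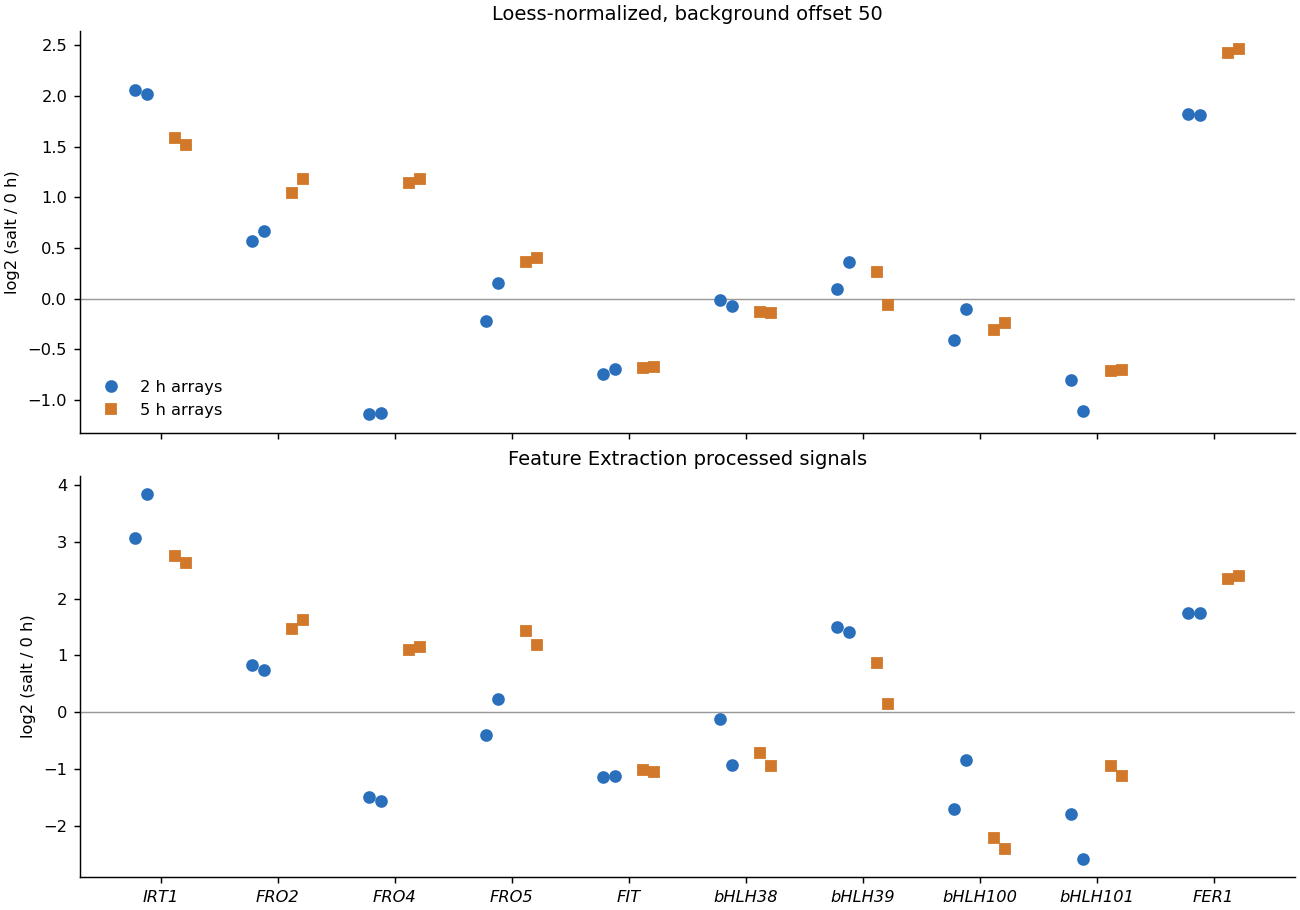
Log2 ratio of salt over 0 h of the 10 genes on each array, at 2 h (blue circles) and 5 h (orange squares), after loess with a background offset of 50 (upper panel) and from the processed signals (lower panel). The 2 arrays of a time lie close together for IRT1, FRO2, FRO4, FIT and FER1 in the upper panel, and the dim genes spread more in the lower panel, as bHLH101 does at 2 h.

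FER1, the ferritin, had 0 h signals of 20200 and 19100 and salt signals of 67500 and 63700 on the 2 h arrays. On the 5 h arrays its 0 h signals were 22800 and 20200 and its salt signals 117000 and 107000. The salt signals were several times higher on all 4 arrays, and no spot was saturated. The log2 change was 1.81 ± 0.034 at 2 h (3.51-fold higher, n = 2, limma adjusted p = 2.41e-09) and 2.44 ± 0.034 at 5 h (5.44-fold higher, n = 2, limma adjusted p = 3.8e-10). The processed signals gave 3.34-fold and 5.2-fold, so the scale made little difference for this bright probe. All 3 FER1 probes passed the filter, and the other 2 gave mean log2 ratios of 1.68 and 1.88 at 2 h and 1.95 and 2.48 at 5 h. The log2 difference between the times was 0.63 ± 0.048 (limma adjusted p = 1.4e-05), but it was 0.061 and not called (limma adjusted p = 0.312) when the arrays were scaled to one spread.

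Between the times, 5 of the 10 genes were higher at 5 h than at 2 h relative to 0 h (FRO2, FRO4, FRO5, bHLH101 and FER1) and IRT1 was lower. FRO5 is in this count only through its 5 h salt signals, since it was dim at 0 h and at 2 h on every array. For all genes 72.5% were called between the times, 33.6% higher and 38.9% lower. FRO4 was the gene of the 10 whose difference reached 2-fold, beside 4.33% of all genes higher and 3.43% lower by that much. The median difference of the 10 genes was 0.145 on the log2 scale and that of all genes -0.034.

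The other genes of the iron pathway were taken from lists of 66 genes, of which 64 had a probe and 58 passed the filter. At 2 h 25 of the 58 were higher, 25 lower and 8 not called, and at 5 h 25 were higher, 29 lower and 4 not called. These counts are near the background shares given above. Those lower include IRT2, FRO1 and VIT1, which passed the filter only through the 0 h sample. Those higher include AT2G22760 and AT4G37850, which passed it only through the salt samples. The genes named from these lists are those called with a change of at least 2-fold at 2 h or 5 h. IRT2, FRO1, VIT1, FER2, FER4, AT1G47400 and AT1G47395 are named besides, chosen after their values were seen. The last 2 were the tested members of a list of 3 loci, and both were lower, with log2 changes of -0.44 ± 0.045 and -0.84 ± 0.045 at 2 h and -0.42 ± 0.045 and -0.79 ± 0.045 at 5 h (limma adjusted p from 7.49e-07 to 3.93e-05).

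Among the genes of uptake and acidification, 1 of 6 was higher and 4 lower at 2 h, and 2 were higher and 4 lower at 5 h. Those counted lower include IRT2, which passed the filter only through the 0 h sample. Of all genes, 41.4% were higher and 40.4% lower at 2 h and 44.1% and 43.7% at 5 h, and lists of this size are given as counts only. The plasma membrane proton pump gene AHA7 had log2 changes of -0.62 ± 0.047 at 2 h and -1.09 ± 0.047 at 5 h (limma adjusted p = 1.39e-07). All 5 reductase genes of the FRO family outside the 10 genes were lower at both times, on the processed scale too. FRO1 is in this count only through the 0 h sample, well above background on 2 of 4 arrays, since its salt signals were dim. FRO6 fell by 1.03 at 2 h and by 2.31 at 5 h on the log2 scale (SE 0.039, limma adjusted p = 9.12e-10 at 5 h). FRO7, the chloroplast reductase, fell by 0.68 and by 2.13 (SE 0.038, limma adjusted p = 1.1e-09 at 5 h), while a second FRO7 probe gave mean log2 ratios of -0.25 and -0.58. FRO8, a mitochondrial member of the family, fell more at 2 h (log2 -1.36 ± 0.036) than at 5 h (log2 -0.87 ± 0.036). FRO2 rose at both times and FRO4 at 5 h, so the measured reductase genes did not move one way. Among the 8 genes of coumarin synthesis and release, which help to mobilise iron, 5 were tested. At 2 h 2 of them were higher and 1 lower, and at 5 h 0 were higher and 4 lower, beside 43.7% of all genes lower at 5 h. F6'H1, the enzyme that makes the coumarin scopoletin's precursor, had log2 changes of 0.27 ± 0.034 at 2 h and -1.07 ± 0.034 at 5 h (limma adjusted p = 2.63e-08), of which the first was 0.139 and not called with the processed signals (limma adjusted p = 0.126).

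Of the 13 upstream regulators tested, 9 were higher and 3 lower at 2 h, and 10 were higher and 1 lower at 5 h, beside 41.4% and 44.1% of all genes higher. Those counted higher include AT2G22760 and AT4G37850, which passed the filter only through the salt samples, so the counts are a description. BTS, an E3 ligase that limits the iron deficiency response, had log2 changes of 0.62 ± 0.041 at 2 h and 1.53 ± 0.041 at 5 h (limma adjusted p = 9.8e-09). A second BTS probe gave mean log2 ratios of -0.23 and 0.52, so the probes disagree at 2 h. PYE, a bHLH repressor of iron distribution genes, rose by 0.60 ± 0.038 at 2 h and 1.04 ± 0.038 at 5 h (limma adjusted p = 5.05e-08). bHLH34, an activator of the bHLH genes that partner FIT, rose by 0.87 ± 0.036 and 1.31 ± 0.036 on the log2 scale (limma adjusted p = 1.09e-08 at 5 h). NAI1, a bHLH gene, rose by 1.08 ± 0.035 at 2 h (limma adjusted p = 4.36e-08) and had a log2 value of 0.10 ± 0.035 at 5 h. AT2G22760 was not well above background at 0 h, with signals of 6.56, 7.73, 7.15 and 18.9, and reached 492 and 532 at 2 h and 1010 and 960 at 5 h. It was higher by a fitted 6.89-fold at 2 h and 8.58-fold at 5 h (limma adjusted p = 5.04e-10 and 2.21e-10). AT4G37850, likewise dim at 0 h, was higher by a fitted 1.45-fold at 2 h and 2.39-fold at 5 h (limma adjusted p = 4.03e-06 and 1.68e-08).

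Among the genes of iron distribution, 5 of 9 tested were higher and 2 lower at 2 h, and 5 were higher and 4 lower at 5 h, close to the shares of all genes (41.4% higher and 40.4% lower at 2 h, 44.1% and 43.7% at 5 h). The nicotianamine synthase genes, whose product chelates iron for transport, moved in opposite directions. NAS1 fell by 1.12 at 2 h and by 2.17 at 5 h (SE 0.036, limma adjusted p = 7.67e-10 at 5 h), while NAS3 rose by 0.70 ± 0.037 and 1.90 ± 0.037 (limma adjusted p = 1.83e-09 at 5 h). Of the transporters of metal-nicotianamine complexes, YSL2 rose by 1.81 ± 0.037 at 2 h and 1.16 ± 0.037 at 5 h, and YSL1 rose by 1.12 ± 0.044 at 5 h (limma adjusted p = 2.54e-08 and 8.24e-08 at 5 h).

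The storage and vacuole genes divided evenly, with 6 of 12 tested higher and 5 lower at 2 h and 6 higher and 6 lower at 5 h, which is near those shares too. Those counted lower include VIT1, which passed the filter only through the 0 h sample, where it was brighter. FER3, a ferritin of the same family as FER1, rose by 2.85 ± 0.035 at 2 h (limma adjusted p = 3.16e-10) and by 1.52 ± 0.035 at 5 h on the log2 scale, so its larger change was at 2 h and that of FER1 at 5 h. FER4 was higher at both times (log2 0.67 ± 0.039 and 0.30 ± 0.039, limma adjusted p = 1.38e-06 and 0.00013). FER2 was lower at 2 h (log2 -0.21 ± 0.041, limma adjusted p = 0.00162) and higher at 5 h (log2 0.31 ± 0.041, limma adjusted p = 0.00013). NRAMP3, which exports iron from the vacuole, rose by 0.73 ± 0.034 and 2.34 ± 0.034 (limma adjusted p = 4.44e-10 at 5 h). VTL1, a vacuolar iron transporter-like gene, rose by 1.39 ± 0.037 and 1.29 ± 0.037 (limma adjusted p = 1.36e-08 at 5 h). Among the plastid and mitochondrial genes, 2 of 6 were higher and 3 lower at each time. AT1G07030 rose by 0.59 ± 0.042 and 1.08 ± 0.042, and NEET, an iron-sulfur protein gene, fell by 0.70 and by 1.31 (SE 0.046, limma adjusted p = 7.5e-08 and 4.23e-08 at 5 h).

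**Figure D3:**
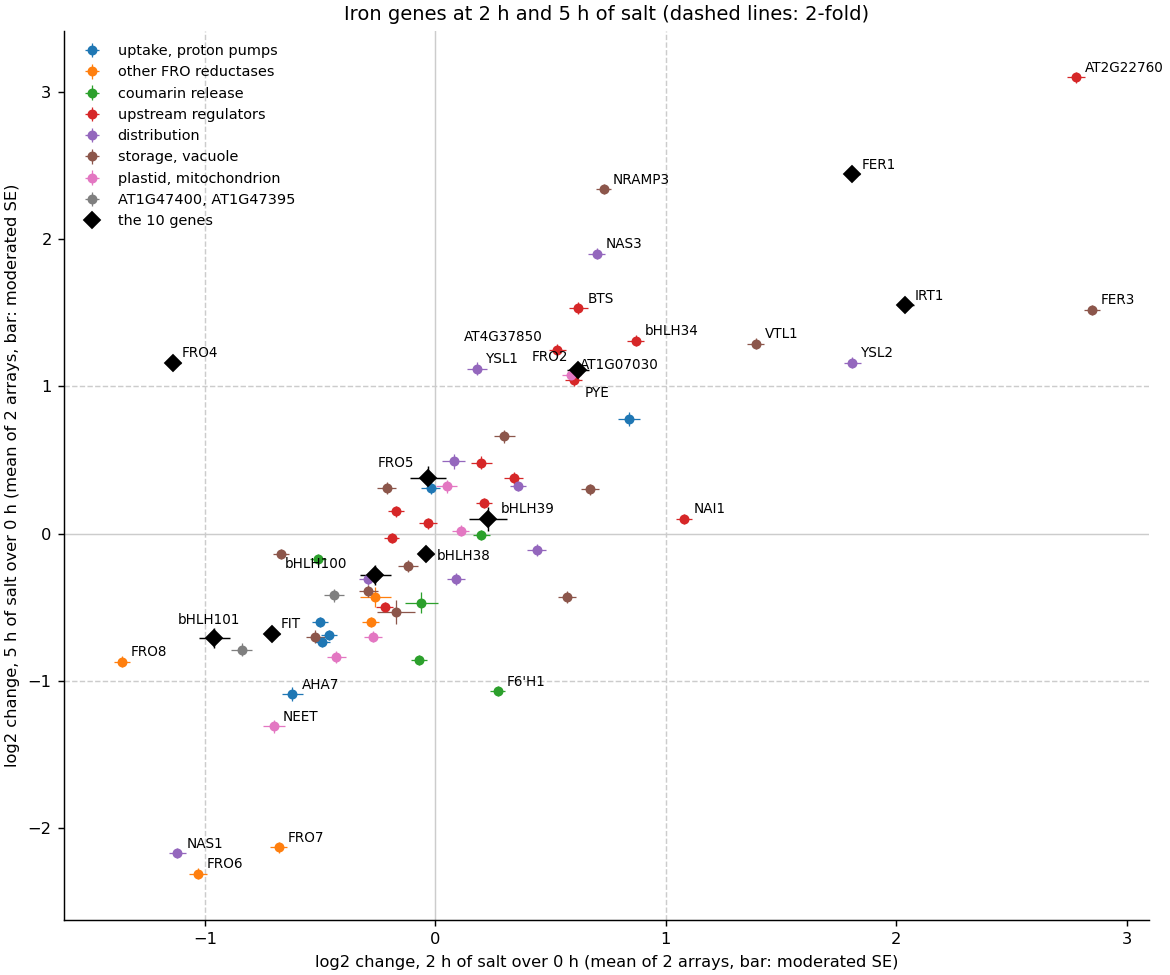
Log2 change of each tested iron gene at 2 h (horizontal axis) and 5 h (vertical axis) of salt over 0 h, as means of 2 arrays with limma's moderated SE, with the 10 genes as black diamonds and the other lists in colour. FRO4 stands alone at the upper left, beyond 2-fold at both times, while IRT1, FER1, FER3, YSL2, VTL1 and AT2G22760 (a fitted value, dim at 0 h) lie beyond 2-fold higher at both.

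The seedlings held both organs, and most markers of the root were lower after salt. Of the 18 root markers, 17 were tested. At 2 h 13 were lower and 2 higher (median log2 -0.50), and at 5 h 15 were lower and 1 higher (median log2 -0.97). Those lower at 5 h include LRX1, which passed the filter only through the 0 h sample, where it was brighter. They also include EXPA7, whose salt signals were dim at 5 h. Of all genes 40.4% were lower at 2 h and 43.7% at 5 h, with median log2 changes of 9.07e-05 and -0.000282. The summed processed signal of the 18 root markers went from 140700 and 148400 at 0 h to 86510 and 94850 on the 2 h arrays, and from 205400 and 167200 to 93740 and 80700 on the 5 h arrays. Most of that sum is PYK10, a root beta-glucosidase gene, with 127000 to 186000 at 0 h. The sum of the other 17 went from 13680 and 14370 to 9406 and 9853 on the 2 h arrays, and from 19380 and 18180 to 10240 and 9396 on the 5 h arrays, and so was lower after salt on all 4 arrays. Of the 18, the nitrate transporter gene NRT2.1 was the one not tested, being dim. The endodermal marker CASP1 fell by 0.64 at 2 h and by 2.08 at 5 h (SE 0.043). The 8 leaf markers had a median log2 change of 0.005 at 2 h, with 3 higher and 2 lower, and of -0.34 at 5 h, with 2 higher and 5 lower. The leaf markers' summed signal went from 1076000 and 1067000 at 0 h to 1074000 and 1119000 on the 2 h arrays, and from 1648000 and 1431000 to 1293000 and 1156000 on the 5 h arrays, where it was lower on both. FIT, bHLH101 and AHA7 thus moved in the direction of most root markers, whereas IRT1 and FRO2, which are also root genes, moved against it. The part of the root markers' decrease in these results was not tested.

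**Figure D4:**
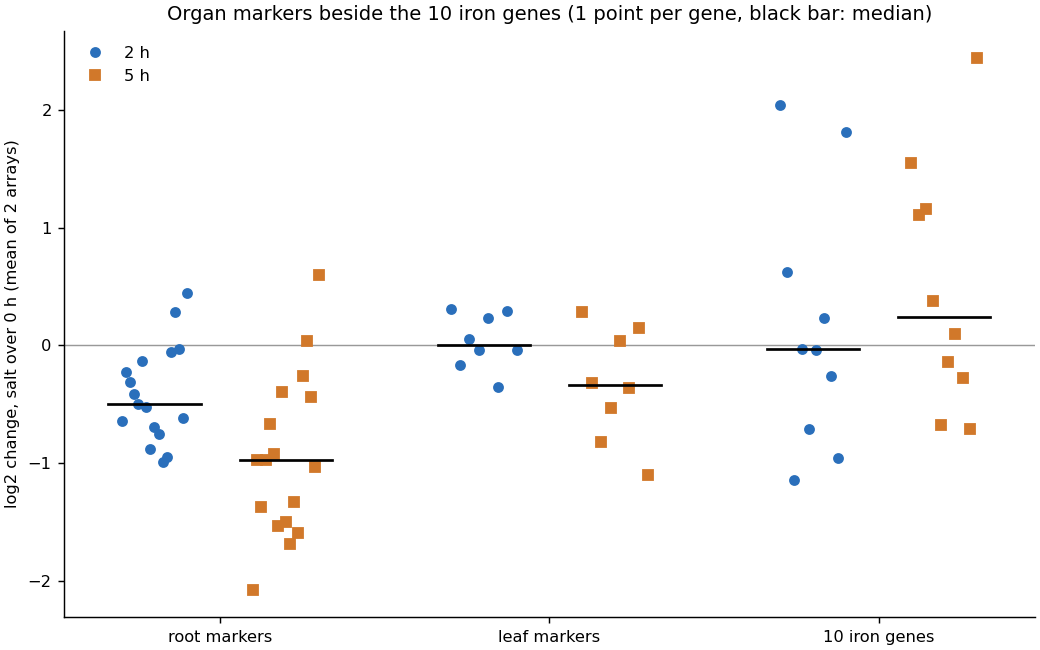
Log2 change of salt over 0 h for 17 root markers, 8 leaf markers and the 10 iron genes, with 1 point for each gene (mean of 2 arrays), blue at 2 h and orange at 5 h, and a black bar at the median. The root markers have medians of -0.50 and -0.97, and the 10 iron genes spread on both sides of 0 at each time.

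For 4 of the 10 genes the 3 genes with the nearest values were found by the Euclidean distance of the log2 ratios over the 4 arrays. Nearest to IRT1 were AT4G27350 (distance 0.0837), AT4G27280 (0.108) and the expansin gene EXPA16 (0.11). Nearest to FIT was LINC3 (0.0287), followed by AT1G66020 (0.0672) and AT3G44020 (0.069). Nearest to FER1 were SIP2 (0.0651), AT1G21520 (0.101) and the vacuolar aquaporin gene GAMMA-TIP (0.108). Nearest to bHLH39 was NAC011 (0.0862), followed by AT2G07708 (0.135) and AT1G21320 (0.137). These distances describe 4 arrays that share the 0 h sample label. No member of the iron lists was among the nearest genes of IRT1, FIT, bHLH39 or FER1. With 3 genes listed for each out of 20413, that absence says nothing about the iron genes. The ratios of bHLH39 come from a probe that was dim at 0 h on all 4 arrays.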

How the data were processed

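Per the file headers, the deposited files hold, for each spot, the median Cy3 and Cy5 intensity and its local background. They also hold processed intensity, with background removed and dyes balanced by Feature Extraction, and, per the file headers, the log10 ratio of processed Cy5 over Cy3. The software is version 11.5.1.1 in the headers and 9.3.2.1 in the submitters' processing notes. Log2 ratios in the series table, as deposited, ran the same way as the arrays' own (r from 0.9972 to 0.9998), with a shift of 0.0858 to 0.118 whose basis is not stated and column medians of 0.143, 0.14, 0.0533 and 0.18. Here median signals, since the files hold no mean signals, were corrected by normexp (offset 50) and normalized by loess in limma 3.58.1 (R 4.3.3), with control and outlier spots at weight 0. Probes stayed in where Cy3 was well above background on 2 or more arrays, or Cy5 on both replicates at 2 h or 5 h. Of 43603 probes, 34348 matched 1 gene of a RefSeq table (TAIR10.1, used for names and gene order) and 32536 were kept. Each gene was read from its brightest such probe.

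Ratios were fitted by time over 4 arrays and tested with limma's moderated test at an adjusted p of 0.05 over all genes, after a check on simulated data. The design text calls the replicates biological. The arrays number 2 for each time, which limits the precision. The array pairs correlated at 0.9897 (2 h) and 0.9954 (5 h). All 4 arrays came from 1 slide and 1 scan. The 10 genes and the lists were chosen with earlier results of these data known. Genes were named by the rule given in the report, and other normalizations, filters, probe choices and left-out arrays were tried. No sequence was analysed here.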

Additional observations from a re-analysis of the deposited data

Results flagged for a closer look

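The genes below had a change at 5 h that differed from that at 2 h by limma's test of the difference itself (adjusted p under 0.05), given as the log2 change at 5 h minus that at 2 h. Of the 10 genes these were FRO4 (2.3), FER1 (0.63), FRO2 (0.49), FRO5 (0.41), bHLH101 (0.25) and IRT1 (-0.49). FRO5 was dim at 0 h and at 2 h, so its value is a fitted difference against a level that was not measured. The call of bHLH101 was lost with an offset of 16, with no filter, with the mean of all probes, and without the second 2 h or the second 5 h replicate (limma adjusted p from 0.0511 to 0.166). That of IRT1 was lost with processed signals, centred or not, and with the deposited values (limma adjusted p from 0.073 to 0.0788). In the uptake, reductase and coumarin lists they were AHA7 (-0.47), FRO6 (-1.28), FRO7 (-1.45), FRO8 (0.49) and F6'H1 (-1.35). Among the upstream regulators they were bHLH34 (0.43), PYE (0.44), BTS (0.91), AT2G22760 (0.32), NAI1 (-0.99) and AT4G37850 (0.72). Among the genes of distribution, storage and organelles they were NAS1 (-1.05), NAS3 (1.21), YSL1 (0.94), YSL2 (-0.65), FER3 (-1.33), NRAMP3 (1.61), AT1G07030 (0.49) and NEET (-0.61). With arrays scaled to one spread the differences of FER1 (0.061) and bHLH34 (0.143) were not called (limma adjusted p = 0.312 and 0.0519) and that of AT2G22760 was -0.475. The call of AT2G22760, dim at 0 h as AT4G37850 was, was also lost with processed signals (0.237, limma adjusted p = 0.713), centred ones (0.227, limma adjusted p = 0.724) and the deposited values (0.211, limma adjusted p = 0.744). The ferritins FER1 and FER3 differed between the times in opposite directions. So did FRO4, which was higher at 5 h, and FRO6 and FRO7, which were lower.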

How the results depend on the processing

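Of the log2 values of single genes set against alternatives, 1279 kept direction and side of the threshold, 26 lost the call, 15 gained one and 12 turned direction. Of the counts of genes, 263 stayed within 1.5 times and 7 did not. IRT1, FRO2, FRO4, FIT, bHLH101 and FER1 kept direction and call at 2 h and at 5 h under all 15 alternatives. For IRT1 the alternative filters and probe choices all read the same probe, so they do not weigh its 2 probes, which disagree. The count of the 10 genes lower at 5 h against 0 h was 2 in place of 4 with bright probes alone, since 6 of the 10 were then tested. The count lower at 5 h against 2 h was 2 in place of 1 with median-centred processed signals, no background correction, an offset of 16 or the deposited log2 values, and from 1 to 2 with 1 replicate left out. Directions turned for FRO5 at 2 h (0.068 median-centred, 0.041 deposited, 0.159 without the first 2 h replicate) and bHLH39 at 5 h (-0.056 without the first 5 h replicate). With processed signals they turned for YSL1 at 2 h (-0.006) and NAI1 at 5 h (-0.069). They also turned at 5 h against 2 h for bHLH39 (0.005 without the second 2 h replicate, 0.035 without the second 5 h replicate) and AT2G22760 (-0.475, scaled). For bHLH100 that difference turned with arrays scaled to one spread (0.049), without the second 2 h replicate (0.134) and without the first 5 h replicate (0.012). Other left-out arrays kept the direction at a larger size. These were FRO5 at 2 h (-0.222 without the second 2 h replicate) and bHLH39 at 5 h (0.262 without the second 5 h replicate). At 5 h against 2 h they were bHLH39 (-0.284 without the first 5 h replicate) and bHLH100 (-0.178 without the first 2 h replicate). The cause was not tested. Uncentred processed signals moved the median of all genes by -0.145 at 2 h and -0.135 at 5 h and the 2 h calls from 8448 higher and 8256 lower to 6566 and 10354. The 10 genes then still had 4 higher and 4 lower. With a replicate block 4 of the 10 genes were higher and 4 lower at 2 h, 5 and 4 at 5 h, and 5 and 1 between the times, and no call changed. The deviations of same-numbered arrays correlated with r = 0.0591. Whether such arrays share more than a number was not tested. A slide or scan block was not run because all arrays share 1 of each. Signal over background limits FRO5, bHLH38, bHLH39 and bHLH100.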
